A study of Mus musculus with 58 samples.

Results

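Fatty acid elongases and desaturases set how long the chains of a cell's fatty acids are and how many double bonds they carry. The set was chosen by name and holds 8 genes: the condensing elongases Elovl1, Elovl3, Elovl5 and Elovl6, the reductases Hsd17b12 and Tecr of the elongation cycle, and the front-end desaturases Fads1 and Fads2. Of these, 7 were measured among the 11603 gene rows of the expression table, and Fads2 was not analysed here. The 22 libraries hold ribosome-bound mRNA from adipocytes of C57BL/6J mice fed standard chow. In NuTRAP mice, cells that express Cre carry a GFP-tagged ribosomal protein, so that a GFP antibody pulls down their ribosomes with the bound mRNA. The labels name both a Ucp1-NuTRAP and an Adipoq-NuTRAP line without saying which line gave which library, and they give neither the age nor the number of animals behind a library. Interscapular brown fat gave the cold brown libraries (4 °C for 1 week, n = 5) and the warm brown libraries (the same cold week and then 4 weeks at 30 °C, n = 5). Inguinal white fat gave the cold beige (n = 4) and warm beige (n = 3) libraries under these same schedules. Inguinal fat of mice held at 30 °C from birth gave the warm white libraries (n = 5), although their sample descriptions carry the word rewarm. Apart from these exposures mice were kept at 23 °C, so the brown and beige groups also differ from warm white in their earlier housing.

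Elongation lengthens an acyl-CoA on the endoplasmic reticulum by a cycle of condensation with malonyl-CoA, reduction, dehydration and a final reduction. The ELOVL enzymes carry out the condensation and decide which chains enter, whereas the ketoacyl reductase Hsd17b12, the Hacd dehydratases and the enoyl reductase Tecr serve all chains. Desaturases insert double bonds with electrons from cytochrome b5, and Fads1 and Fads2 act on polyunsaturated chains. Brown fat is known for raising lipogenesis and fatty acid oxidation together in the cold, and Elovl3 has long been known there as a cold-induced gene.

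The 250 bases before the annotated start are shown for the 4 measured members that fell on warming in both fat depots and have a promoter entry in RefSeq (build GRCm38.p6), read 5′ to 3′ on the strand of the gene. Capitals mark matches to an NF-Y box (CCAAT), an Sp1 box (GGGCGG) or an E-box (CACGTG) on either strand, so that ATTGG is a CCAAT on the other strand. The windows are chr3:129532136-129532385 on the plus strand for Elovl6, chr9:77917115-77917364 on the plus strand for Elovl5, chr2:94157910-94158159 on the minus strand for Hsd17b12 and chr8:83594492-83594741 on the minus strand for Tecr.
Elovl6: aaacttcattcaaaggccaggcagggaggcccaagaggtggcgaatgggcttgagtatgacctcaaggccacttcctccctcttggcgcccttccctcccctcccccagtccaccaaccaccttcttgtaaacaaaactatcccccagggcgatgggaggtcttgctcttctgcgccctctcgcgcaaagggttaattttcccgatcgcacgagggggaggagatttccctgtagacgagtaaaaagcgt
Elovl5: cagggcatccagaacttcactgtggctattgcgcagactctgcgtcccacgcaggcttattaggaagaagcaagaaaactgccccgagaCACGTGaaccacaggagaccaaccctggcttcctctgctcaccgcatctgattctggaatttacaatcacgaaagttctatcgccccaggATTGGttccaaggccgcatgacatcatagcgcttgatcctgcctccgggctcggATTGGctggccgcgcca
Hsd17b12: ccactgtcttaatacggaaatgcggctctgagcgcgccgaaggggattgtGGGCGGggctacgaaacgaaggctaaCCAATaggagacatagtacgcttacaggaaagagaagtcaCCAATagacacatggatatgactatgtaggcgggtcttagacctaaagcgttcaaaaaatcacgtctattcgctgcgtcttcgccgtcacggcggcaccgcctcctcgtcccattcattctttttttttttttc
Tecr: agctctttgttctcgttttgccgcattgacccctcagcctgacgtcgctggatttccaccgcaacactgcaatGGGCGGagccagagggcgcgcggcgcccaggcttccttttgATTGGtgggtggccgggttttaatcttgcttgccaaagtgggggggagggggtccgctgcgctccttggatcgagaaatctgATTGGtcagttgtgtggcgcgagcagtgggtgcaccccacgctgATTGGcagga
The windows of Elovl5, Hsd17b12 and Tecr held 2, 2 and 3 CCAAT letters, and the window of Elovl6 held none of the motifs searched. A window of Elovl1, which rose in beige cells and is not shown, also held CCAAT (35 bases before the start) and GGGCGG. Of all 32851 RefSeq promoter windows of this length, 33.8% held CCAAT, 32.7% held GGGCGG and 6.02% held CACGTG. The search also covered the sterol response element of the LDL receptor gene (in 0.0731% of windows), its looser core (TCACNCCAC, 1.05%) and nuclear receptor repeats of AGGTCA spaced by 1 base (0.0335%) or 4 bases (0.0152%), and none of these was in the 4 windows. A match is a description of letters and not a bound site.

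The values are log2 CPM, read counts scaled by the authors to a nominal total, with a floor near -5 or below for genes without signal. They are not divided by transcript length, so levels were compared between samples and not between genes. All 22 libraries shared 1 limma fit, and p-values were adjusted over all 11603 genes. The depth of the libraries is unknown. The values part the libraries into 2 batches (10 and 12 libraries, read from the values alone), each with libraries of all 5 groups. Adipocyte markers (8 of 8 measured) summed to between 11300 and 18700 CPM in every library. The sum of 7 measured thermogenic markers was 7810 to 10100 CPM in cold brown, 2740 to 3300 in warm brown, 5710 to 6900 in cold beige, 222 to 422 in warm beige and 65.1 to 97.7 in warm white. White adipocyte markers (5 of 6 measured) summed to 199 to 409 CPM in cold beige, 2260 to 3680 in warm beige and 3440 to 4520 in warm white, and to 7.42 to 14.5 in cold brown and 426 to 706 in warm brown. Endothelial markers (9 of 9 measured) summed to 180 and 170 CPM in cold brown libraries 1 and 5 and to 53.9 to 58.1 CPM in libraries 2 to 4.

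On warming, the elongases Elovl3, Elovl5 and Elovl6 and the reductases Hsd17b12 and Tecr fell in both beige and brown cells. Elovl1 rose in beige cells and did not pass the test in brown cells, and Fads1 did not pass in either depot. In beige cells 5 of 7 members fell and 1 rose (limma, adjusted p under 0.05), where 72.9% of all genes were called, 36.9% downward and 36% upward. In brown cells 5 of 7 members fell and 0 rose, where 71.3% of all genes were called, 30.1% downward and 41.2% upward. The share of upward calls among all calls depended on the scaling: it was 49.4% in beige and 57.7% in brown cells, and up to 60.8% in beige and between 49.8% and 67.6% in brown cells under other scalings. The median change of the members was -1.71 log2 units in beige and -1.26 in brown cells, against 0.03 and 0.13 over all genes. For each of these 5 genes every warm library lay below every cold library of its depot, a separation that 33.5% of all genes showed in beige and 27.6% in brown cells. Elovl1 was separated upward in beige cells, as were 32.9% of all genes. In these bulk samples, less mRNA per cell and fewer cells of a type cannot be told apart.

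**Figure D1:**
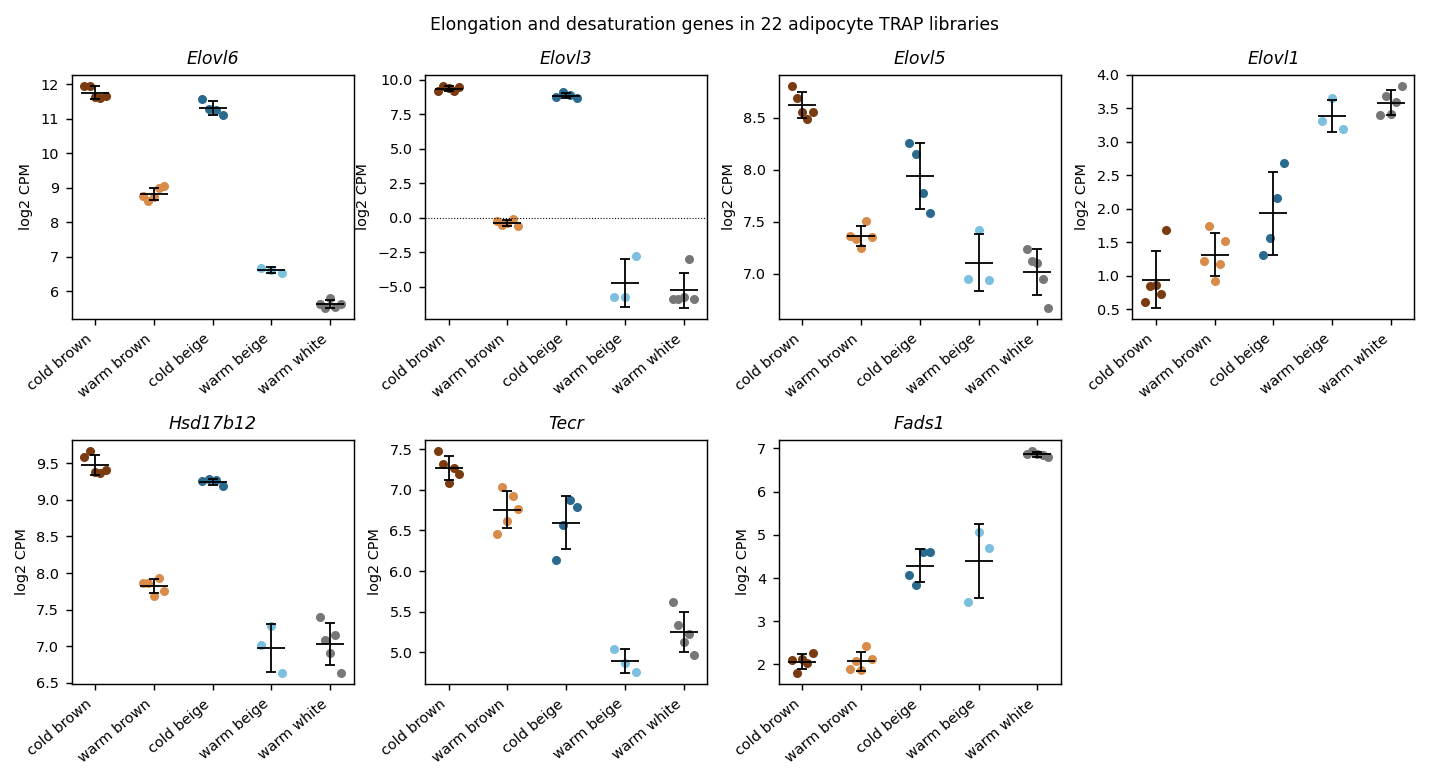
Each panel plots 1 gene in log2 CPM (vertical axes differ), with a point per library and bars for the mean and SD of a group; dotted line, 1 CPM. Elovl6 separated all 5 groups, from 11.60 or more in cold brown to 5.81 or less in warm white, whereas Fads1 was at 6.79 to 6.94 in warm white and at 5.07 or less elsewhere.

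Elovl6, which elongates palmitate to stearate, spanned the widest range of group means of the 6 members with no library at the floor. Its levels were 11.95, 11.96, 11.62, 11.60 and 11.66 log2 CPM in cold brown libraries 1 to 5 and 8.75, 8.61, 8.74, 8.99 and 9.04 in warm brown. They were 11.58, 11.27, 11.26 and 11.11 in cold beige and 6.69, 6.62 and 6.54 in warm beige. In warm white they were 5.62, 5.53, 5.81, 5.56 and 5.64. The 5 groups did not overlap, in the order cold brown, cold beige, warm brown, warm beige and warm white. Elovl6 fell by 4.69 ± 0.12 log2 units (SE, 25.8-fold; limma, adjusted p = 9.78e-19) in beige cells. In brown cells it fell by 2.93 ± 0.10 (7.63-fold; adjusted p = 1.58e-16). As a share of the summed values, Elovl6 had a median of 0.236% in cold beige and 0.0107% in warm beige, and of 0.308% in cold brown and 0.045% in warm brown. Within batches 1 and 2 the beige change was -4.81 and -4.61, and the brown change was -3.28 and -2.70.

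Warm beige cells held more Elovl6 mRNA than warm white cells from the same depot, by 0.98 ± 0.11 log2 units (1.98-fold; limma, adjusted p = 5.36e-07), and no library of one group reached the range of the other. Warm brown cells stood 3.19 ± 0.10 above warm white, and cold beige cells 5.67 ± 0.10 above it (adjusted p = 8.39e-22). These 3 comparisons share the warm white libraries. In the cold, beige cells were below brown cells by a smaller margin, -0.45 ± 0.10 (adjusted p = 0.000687).

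Elovl3 makes saturated and monounsaturated very long chains. Its levels were 9.19, 9.56, 9.41, 9.14 and 9.44 log2 CPM in cold brown and 8.73, 9.07, 8.86 and 8.67 in cold beige. Warm brown libraries were at -0.21, -0.55, -0.41, -0.10 and -0.59, just below 1 CPM. Warm beige libraries were at -5.73, -5.73 and -2.73, and warm white libraries at -5.84, -5.84, -5.73, -2.99 and -5.84. The cold ranges lay far above the warm ones, and the warm brown values formed a narrow band above the 2 inguinal warm groups, in which 2 of 3 and 4 of 5 libraries were at the floor. A fold change against these inguinal warm groups depends on the floor, so changes are given with 1 CPM added. On that scale Elovl3 fell by 8.75 ± 0.11 in beige and by 8.52 ± 0.09 in brown cells (limma, adjusted p = 3.57e-25 and 8.76e-27).

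With 1 CPM added, warm brown was above warm white in Elovl3 by 0.77 ± 0.09 log2 units (limma, adjusted p = 7.68e-08). Every library of both groups was below 1 CPM, so the size of this difference depends on the CPM added. Over the alternatives run it lay between 0.198 and 5.46, with a highest limma adjusted p of 0.0212. Warm beige differed from warm white by 0.03 ± 0.11 (adjusted p = 0.847), a comparison of values at or near the floor. On the deposited values this difference was 3.11 within batch 1, which has 1 warm beige library (adjusted p = 0.00248), and -1.37 within batch 2 (0.105). In the cold, Elovl3 was 0.51 ± 0.10 lower in beige than in brown cells with 1 CPM added (difference -0.51, adjusted p = 0.000112). The cold ranges did not overlap. Deposited values gave -0.52 ± 0.52 (limma, adjusted p = 0.405) in the fit that shares 1 spread with the groups at the floor. With only the cold groups fitted, the same difference passed (limma, adjusted p = 0.000936). Elovl3 and Pitx3 share 414 bases in the annotation, and whether counting used strand is not stated. Pitx3 itself was at 0.62 to 1.65 log2 CPM in cold brown, 1.58 to 2.87 in cold beige and at most 0.05 in any warm library.

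Elovl5, which elongates polyunsaturated fatty acids, fell less than Elovl6. Its levels were 8.81, 8.69, 8.56, 8.49 and 8.56 log2 CPM in cold brown and 7.36, 7.33, 7.25, 7.51 and 7.35 in warm brown. They were 8.26, 8.15, 7.78 and 7.58 in cold beige, 6.95, 7.42 and 6.94 in warm beige, and 7.24, 7.12, 7.10, 6.95 and 6.67 in warm white. Cold brown was the highest group and cold beige the next, without overlap, while the 3 warm groups ran into each other: warm brown overlapped warm beige, and warm beige overlapped warm white. Elovl5 fell by 0.84 ± 0.15 log2 units in beige cells (limma, adjusted p = 2.51e-05), and by 1.26 ± 0.12 in brown cells (adjusted p = 4.49e-09). Within batches 1 and 2 these changes were -0.98 and -0.78 in beige and -1.41 and -1.17 in brown cells. Warm brown exceeded warm white by 0.34 ± 0.12 (adjusted p = 0.0134), a call lost without warm white library 5 (0.26, adjusted p = 0.0543) and within batch 1 (adjusted p = 0.189).

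Elovl1, the elongase of saturated very long chains that feed ceramide synthesis, went the other way in beige cells. Its levels were 0.61, 0.85, 0.86, 0.73 and 1.68 log2 CPM in cold brown and 1.22, 1.75, 0.92, 1.18 and 1.52 in warm brown. They were 1.31, 1.57, 2.17 and 2.68 in cold beige, 3.31, 3.66 and 3.20 in warm beige, and 3.40, 3.69, 3.41, 3.59 and 3.84 in warm white. Warm beige and warm white overlapped at the top, the brown groups overlapped at the bottom, and cold beige had the widest spread, with 2 libraries inside the range of warm brown and 2 above it. Elovl1 rose by 1.46 ± 0.29 log2 units in beige cells (2.75-fold; limma, adjusted p = 0.000101). The rise was 1.62 within batch 2 (adjusted p = 0.00129) and 1.21 within batch 1, which has 1 warm beige library (adjusted p = 0.0931).

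In brown cells the Elovl1 difference was 0.37 ± 0.24 log2 units and did not pass the test (limma, adjusted p = 0.165). Without cold brown library 5 it was 0.56 (adjusted p = 0.0357), and after quantile normalization its sign turned (-0.31, adjusted p = 0.268). Warm white exceeded warm brown by 2.27 ± 0.24 (warm brown minus warm white, -2.27; adjusted p = 1.02e-08) and cold beige by 1.65 ± 0.25 (-1.65; adjusted p = 3.3e-06). Cold beige exceeded cold brown by 0.99 ± 0.25 (adjusted p = 0.00185), but this was -0.00 after quantile normalization (adjusted p = 0.99) and missed the threshold within either batch (adjusted p = 0.0515 and 0.0568).

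Markers of other cell types were counted beside the rise of Elovl1 in beige libraries, where 36% of all genes rose and 36.9% fell. The shares in brown cells were 41.2% rising and 30.1% falling. Of 9 endothelial markers 7 rose and 0 fell on warming, and their sum was 158 to 335 CPM in cold beige and 510 to 815 in warm beige, but 50.7 to 76.2 in warm white. Fibroblast and preadipocyte markers rose in 7 of 8 cases and fell in 0, with sums of 754 to 1130 CPM in cold beige, 2700 to 5460 in warm beige and 3930 to 5200 in warm white. Of 6 smooth muscle and pericyte markers 4 rose, with sums of 79.1 to 260 and 327 to 602 CPM. Of 6 measured macrophage markers 3 rose, with sums of 47.5 to 82 and 90.7 to 127 CPM. Skeletal muscle markers (7 of 8 measured) rose in 6 cases and fell in 1, with sums of 10.1 to 41.9 and 17.1 to 184 CPM, and 0 of 6 mammary and skin epithelium markers were measured. In brown cells 8 of 8 fibroblast markers rose, with sums of 32.6 to 67 CPM in the cold and 124 to 252 in the warm, and 3 of 9 endothelial markers rose. White adipocyte markers rose in 4 of 5 measured cases in each depot. The summed skeletal muscle markers went from 158 to 251 CPM in cold brown down to 19.8 to 37.2 in warm brown without overlap, with 0 of 7 rising and 2 falling, Acta1 and Mb, named after their values were seen, and with Tnnt3 at the floor in every cold brown library. None of the markers measured in beige libraries stayed at the floor throughout a beige group, and their part in the levels of Elovl1, or of any other member, was not tested.

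Hsd17b12, which carries out the first reduction of the cycle, followed the falling elongases. Its levels were 9.59, 9.67, 9.38, 9.37 and 9.41 log2 CPM in cold brown and 7.86, 7.87, 7.68, 7.93 and 7.76 in warm brown. They were 9.26, 9.28, 9.27 and 9.19 in cold beige, 7.01, 7.28 and 6.63 in warm beige, and 7.40, 7.08, 6.90, 7.15 and 6.63 in warm white. The cold groups lay close together at the top, warm brown stood apart below them, and warm beige and warm white overlapped. Hsd17b12 fell by 2.28 ± 0.14 log2 units in beige cells (4.85-fold; limma, adjusted p = 1.98e-12), and in brown cells it fell by 1.66 ± 0.12 (3.17-fold; adjusted p = 2.15e-11). Within batches 1 and 2 these changes were -2.60 and -2.13 in beige and -1.77 and -1.60 in brown cells. Warm brown exceeded warm white by 0.79 ± 0.12 (adjusted p = 1.84e-06), and warm beige differed from warm white by -0.06 ± 0.13 (adjusted p = 0.76).

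The list of dehydratases, with a relative of Tecr, had 3 measured genes of 5: Hacd1, Hacd2 and Hacd3. All 3 fell in beige cells, with a median of -1.63, and in brown cells 2 fell and 1 rose, with a median of -2.05. Over all genes 36.9% fell and 36% rose in beige cells, and 30.1% fell and 41.2% rose in brown cells. Hacd2 fell by 3.07 ± 0.10 log2 units in brown cells, from 8.49 to 8.83 log2 CPM down to 5.43 to 5.94, and by 1.94 ± 0.12 in beige cells, from 8.54 to 8.86 down to 6.57 to 6.87 (limma, adjusted p = 1.04e-16 and 2.07e-12). The fall of Hacd2 was larger in brown cells, with beige minus brown at 1.13 ± 0.16 (adjusted p = 3.16e-06), the reverse of the order for Elovl6, Hsd17b12 and Tecr. Hacd1, the form abundant in muscle, fell by 1.63 ± 0.18 in beige and by 2.05 ± 0.15 in brown cells. Skeletal muscle markers summed to less in warm than in cold brown libraries, as given above, though 2 of 7 fell and 5 were not called. Their part in the brown value of Hacd1 was not tested. Hacd3, picked out after its values were seen, had opposite signs: -0.35 ± 0.11 in beige and 0.36 ± 0.09 in brown cells (difference -0.71, adjusted p = 0.000226). Its beige fall lost the call with libraries set to a common total (adjusted p = 0.074), with totals that leave out the 20 most abundant genes (0.229) and within batch 2 (0.396), and its brown rise did so within batch 1 (0.188).

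Tecr, the enoyl reductase that closes the cycle, had a larger fall in beige cells. Its levels were 7.48, 7.32, 7.09, 7.27 and 7.19 log2 CPM in cold brown and 6.45, 7.03, 6.62, 6.93 and 6.76 in warm brown. They were 6.14, 6.57, 6.87 and 6.79 in cold beige, 5.04, 4.87 and 4.75 in warm beige, and 5.62, 5.34, 5.12, 5.22 and 4.96 in warm white. Warm brown and cold beige overlapped, and so did warm white and warm beige, which was the lowest group. Tecr fell by 1.71 ± 0.16 log2 units in beige cells (3.26-fold; limma, adjusted p = 3.12e-09), and by 0.51 ± 0.13 in brown cells (1.43-fold; adjusted p = 0.00175). The brown change was -0.66 within batch 1, where it missed the threshold (adjusted p = 0.0753), and -0.41 within batch 2 (adjusted p = 0.00329). In the cold, Tecr was lower in beige than in brown cells by -0.68 ± 0.14 (adjusted p = 0.0003).

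The size of the warming effect differed between beige and brown cells for 5 of 7 members, 4 with a lower and 1 with a higher value in beige cells (limma test of the difference of effects). Over all genes 47.2% differed, 32.4% lower and 14.8% higher. Higher values were 31.3% of these calls, but 49.7% after quantile normalization, 45.4% with median-of-ratios scaling and 40.8% with totals that leave out the 20 most abundant genes. Elovl6 differed by -1.76 ± 0.15 log2 units (adjusted p = 4.34e-09), Tecr by -1.19 ± 0.21 (6.98e-05) and Hsd17b12 by -0.61 ± 0.18 (0.00801), each with the larger fall in beige cells. Elovl1 differed by 1.09 ± 0.37 (0.0203), and this call was lost without cold beige library 1 (0.88, 0.0515), without warm beige library 2 (0.95, 0.063) and within batch 1 (0.45, 0.714). The Elovl3 difference rested on the floor, being -3.84 on deposited values, -0.23 with 1 CPM added (0.204) and 0.32 with 5 CPM added, where it passed in the other direction (0.0284). Elovl5 differed by 0.42 ± 0.19 with adjusted p = 0.0734, and it passed under several other settings, with values of 0.42 to 0.64. Within batch 1, with 7 brown and beige libraries, Elovl6 (-1.53, 0.00306) was the single member that passed, with Tecr at -1.05 (0.127) and Hsd17b12 at -0.83 (0.111).

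**Figure D2:**
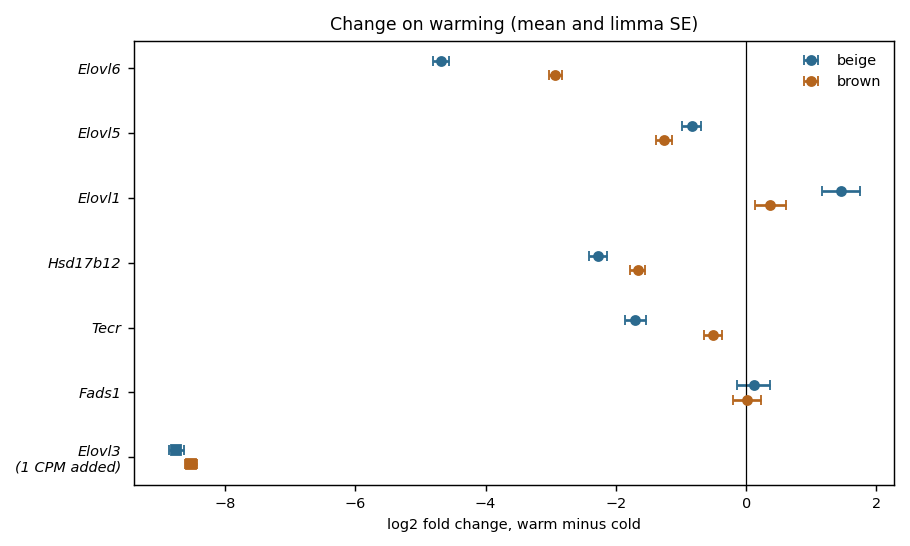
Points give the log2 change from cold to warm for each member in beige and brown cells, with bars of 1 limma SE; Elovl3 (squares) is shown with 1 CPM added. Elovl6, Hsd17b12 and Tecr lie further left in beige, Elovl5 lies further left in brown cells (a difference that did not pass the test), and both Fads1 points lie at 0 within their error.

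Fads1, the delta-5 desaturase of polyunsaturated fatty acids, differed between depots and groups but not detectably with warming. Its levels were 2.11, 1.80, 2.13, 2.03 and 2.26 log2 CPM in cold brown and 1.90, 2.07, 1.88, 2.42 and 2.12 in warm brown. They were 4.07, 3.85, 4.61 and 4.61 in cold beige and 3.44, 5.07 and 4.69 in warm beige. In warm white they were 6.87, 6.94, 6.86, 6.85 and 6.79. Both brown groups overlapped, both beige groups overlapped, and the white libraries lay above all others. The change on warming was 0.12 ± 0.25 log2 units in beige (limma, adjusted p = 0.692) and 0.01 ± 0.21 in brown cells (adjusted p = 0.964). The beige value depends on single libraries: it was 0.60 and passed without warm beige library 1 (adjusted p = 0.00912), and it was -0.22 without warm beige library 2 (adjusted p = 0.446).

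Warm beige cells had less Fads1 mRNA than warm white cells of the same depot and final temperature, by -2.46 ± 0.24 log2 units (5.51-fold; limma, adjusted p = 6.43e-08). Cold beige stood at -2.58 ± 0.22 and warm brown at -4.78 ± 0.21 from warm white (adjusted p = 4.26e-10 and 2.06e-15). Beige exceeded brown by 2.22 ± 0.22 in the cold and by 2.32 ± 0.24 in the warm (adjusted p = 2.51e-08 and 1.38e-08). Fads1 (chromosome 19, 10182877 to 10196874 in GRCm38.p6) lies next to Fads2 and Fads3 in the reference annotation. Fads3 (10040855 to 10060113), named after its values were seen, was lowest in cold brown, at 1.23 to 2.85 log2 CPM, and like Fads1 highest in warm white, at 7.44 to 7.94. Fads3 rose on warming, by 1.34 ± 0.27 in beige and 2.07 ± 0.22 in brown cells (adjusted p = 0.00012 and 2.25e-08), though within batch 1 the beige rise of 1.34 did not pass (0.0756). The comparison of the warming effects of Fads1 and Fads3 was not tested.

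Elovl6 and Fads1 were the members that differed between warm beige and warm white cells, which share a depot and the final temperature. Of 7 members, 1 was higher and 1 lower in warm beige than in warm white, where 39.4% of all genes differed (17% higher, 22.4% lower). Higher values were 43.1% of these calls, but 52.5% with libraries set to a common total and 61% with totals that leave out the 20 most abundant genes. The earlier housing and the cold week of the warm beige mice cannot be told apart from the other differences between these groups. Against warm white, all 7 differed for cold beige, as did 75.2% of all genes (38% higher, 37.2% lower), and all 7 for warm brown, as did 79% (40.9% higher, 38.1% lower). In both of the latter comparisons Elovl3, Elovl5, Elovl6, Hsd17b12 and Tecr were higher and Elovl1 and Fads1 were lower than in warm white. Tecr in warm beige stood at -0.37 ± 0.16 from warm white (limma, adjusted p = 0.0655), and it passed without warm white library 5 (-0.44, adjusted p = 0.0319). Members that missed the threshold here are not shown to be equal between warm beige and warm white.

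**Figure D3:**
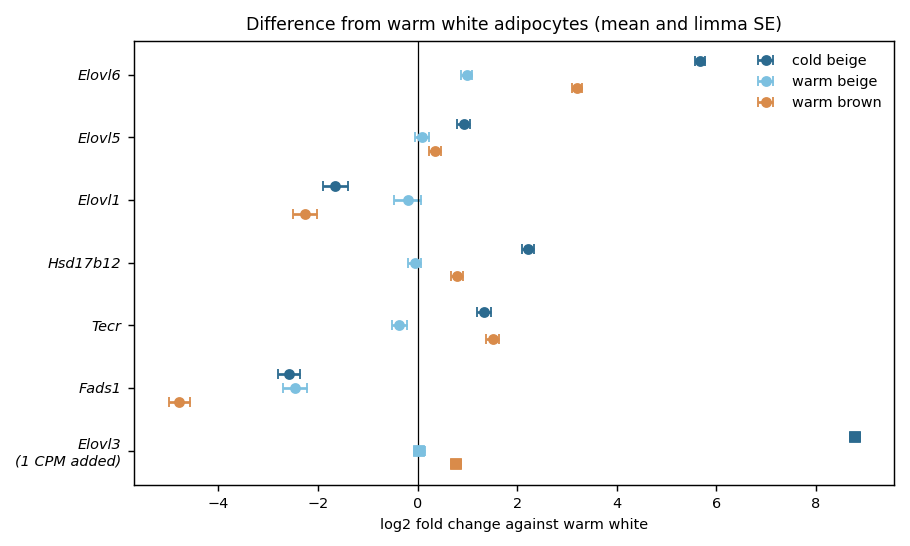
Points give the log2 difference of cold beige, warm beige and warm brown from warm white for each member, with bars of 1 limma SE; Elovl3 (squares) is shown with 1 CPM added. Warm beige lies near 0 for Elovl5, Elovl1, Hsd17b12 and Elovl3, at 0.98 for Elovl6 and at -2.46 for Fads1.

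Between beige and brown cells, 5 of 7 members differed in the cold, 2 higher and 3 lower in beige cells, where 61.9% of all genes differed (34.7% higher, 27.2% lower). In the warm 6 of 7 differed, 2 higher and 4 lower, where 75.5% of all genes did (35.3% higher, 40.1% lower). Among the 4 was Elovl3, with all values below 1 CPM, at -0.74 ± 0.11 with 1 CPM added (limma, adjusted p = 1.54e-06). With 5 CPM added Elovl3 was at -0.19 and did not pass (adjusted p = 0.0523). In the cold Elovl5, Elovl6 and Tecr were lower and Elovl1 and Fads1 higher in beige cells, with Hsd17b12 at -0.23 ± 0.12 (limma, adjusted p = 0.103). In the warm Elovl6 was lower in beige by -2.21 ± 0.11, Tecr by -1.87 ± 0.16 and Hsd17b12 by -0.85 ± 0.13, while Elovl1 was higher by 2.07 ± 0.27. Elovl5 did not pass in the warm (-0.26 ± 0.14, adjusted p = 0.102).

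Differences between genes of the same library do not depend on how that library was scaled. Only their shifts between groups are read, because levels are not divided by transcript length. Elovl6 minus Elovl5 was 3.36 ± 0.18 log2 units (SD) in cold beige and -0.49 ± 0.28 in warm beige, a shift of -3.85. This was the smallest p that 3 against 4 libraries allow (exact two-sided permutation test, p = 0.0286, 0.0343 adjusted over 6 such tests). In brown cells the difference went from 3.14 ± 0.08 to 1.47 ± 0.15, a shift of -1.67 (exact p = 0.00794, the smallest that 5 against 5 allow; adjusted 0.0159). These are shifts in differences of deposited log2 values, which keep any adjustment for batch made before deposit. The ratio of the transcripts themselves was not computed.

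Elovl6 also fell relative to Tecr, by a shift of -2.98 in beige and -2.42 in brown libraries (exact permutation p = 0.0286 and 0.00794, adjusted 0.0343 and 0.0159). Both reductases of the cycle moved unequally in brown cells: Hsd17b12 minus Tecr went from 2.21 ± 0.11 to 1.06 ± 0.21 (exact permutation p = 0.00794, adjusted 0.0159). In beige cells it went from 2.66 ± 0.34 to 2.09 ± 0.28, and the highest warm library (2.41) reached the lowest cold ones (exact permutation p = 0.171).

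**Figure D4:**
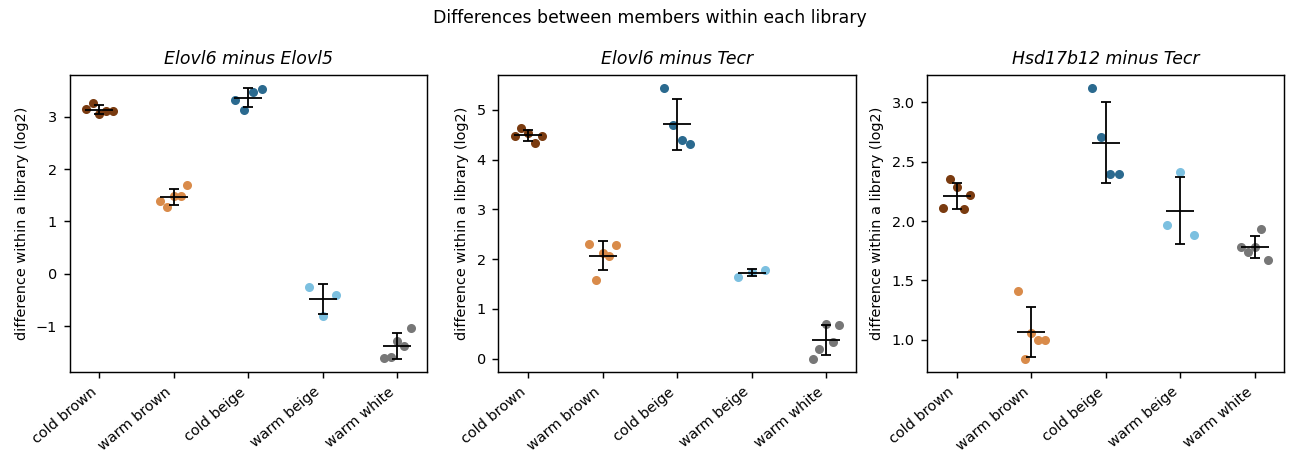
Each panel plots, per library, the difference in log2 CPM between 2 members, with bars for the mean and SD of a group. Elovl6 minus Elovl5 lies at 3.06 to 3.53 in all cold libraries, at 1.28 to 1.69 in warm brown and below 0 in the 3 warm beige libraries.

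Other elongases and desaturases had 6 measured genes of 11 listed, of which 4 fell and 1 rose in beige and 5 fell and 1 rose in brown cells, with medians of -1.16 and -1.13. Over all genes 72.9% were called in beige and 71.3% in brown cells, so these counts, and those of the lists that follow, stand beside shares of 36.9% falling and 36% rising in beige and of 30.1% falling and 41.2% rising in brown cells. Within batch 1 the counts were 0 rising in beige and 3 falling in brown cells. Among stearoyl-CoA desaturases, which make monounsaturated chains, Scd2 fell by 3.40 ± 0.38 log2 units in beige cells (limma, adjusted p = 3.78e-08), from 9.77 to 10.79 log2 CPM down to 6.23 to 8.02. Scd2 also fell in brown cells (-1.4 ± 0.31, adjusted p = 0.000398), a call lost within batch 2 (-0.85, adjusted p = 0.0709). Scd3 fell by 1.63 ± 0.44 in beige and by 2.67 ± 0.36 in brown cells. Scd1, named after its values were seen, was -0.26 ± 0.26 in beige cells (limma, adjusted p = 0.363). It fell by 0.85 ± 0.21 in brown cells (adjusted p = 0.00114). After quantile normalization Scd1 passed in the opposite direction in brown cells (0.70, limma adjusted p = 5.87e-06). With that setting it also passed as a fall in beige cells (-0.47, adjusted p = 0.00238), so its calls depend on the scaling. Scd1 held a median of 1.22% to 1.51% of the summed values in every group except warm brown, where it held 0.88%. The Scd genes are paralogs, and how reads shared between them were counted is not stated, so their separate values are uncertain. Elovl4, another very long chain elongase, fell by 3.88 ± 0.61 in brown cells, from 2.70 to 3.40 log2 CPM to values under 1 CPM (-2.56 with 1 CPM added). It also fell in beige cells, from 0.71 to 1.12 log2 CPM to values under 1 CPM (-1.45 with 1 CPM added, limma adjusted p = 9.05e-08).

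**Figure D5:**
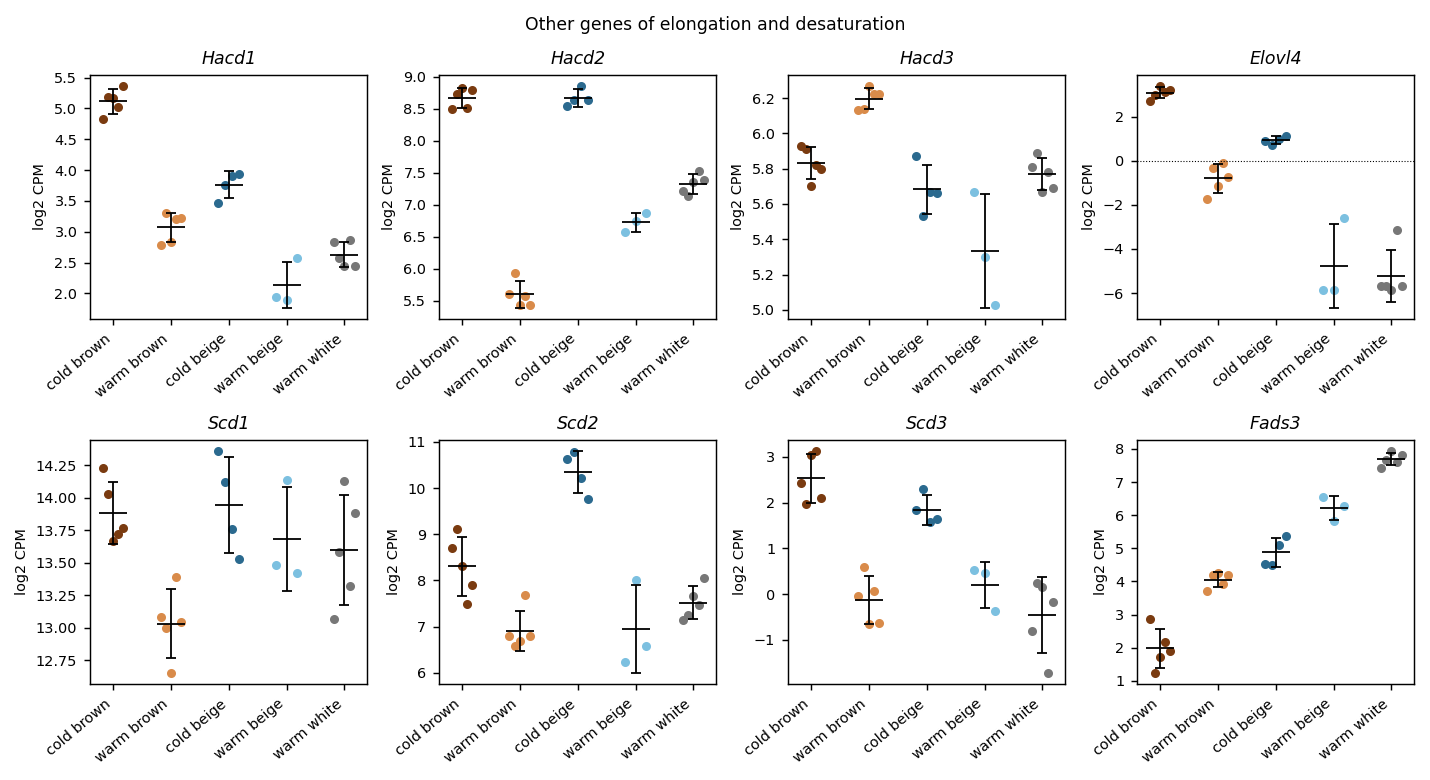
Each panel plots 1 further gene of elongation or desaturation in log2 CPM (vertical axes differ), with a point per library and bars for the mean and SD; dotted line, 1 CPM. Hacd2 was lower in warm brown (5.43 to 5.94) than in any other group, and Fads3 ran upward from cold brown to warm white.

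Cytochromes b5 and their reductases, listed together with Por as electron donors, had 6 measured genes of 7. Of these, 4 fell and 2 rose in beige and 5 fell and 1 rose in brown cells (medians -0.52 and -0.81). Over all genes 72.9% and 71.3% were called. Whether a gene of this list supplies the desaturases in these cells was not tested. Cyb5b, the mitochondrial outer membrane cytochrome b5, fell by 1.63 ± 0.11 log2 units in beige and by 0.94 ± 0.09 in brown cells, and the reductase Cyb5r3 fell by 1.09 ± 0.11 in beige cells. Por, the cytochrome P450 reductase, fell by 0.88 ± 0.07 in brown cells but rose by 0.49 ± 0.08 in beige cells. The difference was 1.37 ± 0.10 (limma, adjusted p = 4.24e-10). The rule for named genes took Por in brown cells alone, so its beige value and this difference stand outside that rule. Genes that supply malonyl-CoA and palmitate had 9 measured of 9, with 8 falling in each depot and 0 rising in beige and 1 in brown cells (medians -2.04 and -1.57). Acly, which makes cytosolic acetyl-CoA, changed by -4.40 ± 0.30 in beige and -2.34 ± 0.25 in brown cells, and Fasn, the fatty acid synthase, by -3.09 ± 0.26 and -3.27 ± 0.21.

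Regulators of lipogenesis had 13 measured genes of 13, of which 9 fell and 0 rose in beige and 6 fell and 1 rose in brown cells (medians -0.45 and -0.17), where 36.9% and 30.1% of all genes fell and 36% and 41.2% rose. The beige counts were 6 falling and 1 rising without warm beige library 3, 10 and 1 without cold beige library 4 and 5 and 0 within batch 1, and they were 6 and 2 after quantile normalization. Ppara, a nuclear receptor for fatty acids, fell by 3.48 ± 0.17 log2 units and Mlx, the partner of the carbohydrate response factors, by 2.41 ± 0.11 in beige cells. Ppara is also on the list of thermogenic markers, and its mean was 9.99 log2 CPM in cold brown and 10.1 in warm brown. In brown cells Nr1h3, which encodes the oxysterol receptor LXR alpha, fell by 1.90 ± 0.10 and Insig1, which holds SREBP in the endoplasmic reticulum, by 1.41 ± 0.12. Srebf1, the gene of the SREBP that drives lipogenesis, named after its values were seen, did not pass (-0.30 ± 0.15 in beige, limma adjusted p = 0.0745, and 0.03 ± 0.12 in brown cells, 0.858).

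Enzymes that use or prepare long chains were counted in the same way, beside the same shares of all genes (36.9% falling and 36% rising in beige, 30.1% and 41.2% in brown cells). Acyl-CoA synthetases had 8 measured genes of 12, with 6 falling and 1 rising in beige and 4 falling and 2 rising in brown cells, among them Acsl5 at -2.19 ± 0.10 and -2.82 ± 0.09, Slc27a2 at -3.00 ± 0.76 in beige (within batch 1 -3.64, limma adjusted p = 0.0522) and Acsl3 at -2.17 ± 0.13 in brown cells. Lysophospholipid acyltransferases had 6 of 10 measured, with 5 falling and 1 rising in beige and 4 falling and 0 rising in brown cells. The single beige rise was lost as any 1 beige library other than warm beige library 3 was left out, and without warm beige library 1 the rising synthetases were 2. Agpat2, which makes phosphatidic acid, fell by 4.50 ± 0.20 and 3.38 ± 0.16, and Lpcat3, which places polyunsaturated chains in phospholipids, by 1.62 ± 0.11 and 1.06 ± 0.09. Of 12 peroxisomal genes of chain shortening 10 fell and 2 rose in beige and 8 fell and 3 rose in brown cells, with Ehhadh at -3.40 ± 0.23 and -3.31 ± 0.19, the importer Abcd3 at -2.93 ± 0.12 in beige and Acox2 at -3.26 ± 0.60 in brown cells.

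Some ceramide synthases, though not all, take up very long chains such as Elovl1 makes. The list had 4 measured genes of 6, of which 2 rose and 1 fell in beige and 2 rose and 0 fell in brown cells. So 3 of 4 and 2 of 4 were called, where 72.9% and 71.3% of all genes were. Without warm brown library 2 or 4, 1 fell in brown cells. Cers2, which uses very long chains, fell by 1.20 ± 0.18 log2 units in beige cells (limma, adjusted p = 3.8e-06), and Cers6, which uses palmitoyl-CoA, rose by 1.60 ± 0.42 (adjusted p = 0.0019). In brown cells Cers5 rose by 0.87 ± 0.09 (adjusted p = 2.79e-08).

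Correlations across the 22 libraries are a description, because the points fall into 5 groups and share the scaling of each library. Elovl3, Elovl6 and Hsd17b12 correlated with each other at Pearson r of 0.966 to 0.974, and Elovl1 and Fads1 at 0.886, while Elovl1 and Tecr stood at -0.889. The genes most like Elovl6 in the whole table were Vwa8 (r = 0.995), Mtor (0.993) and the peroxisomal importer gene Abcd3 (0.99). Those most like Hsd17b12 were Iars2 (0.995), Letm1 (0.991) and Dcaf6 (0.989), and those most like Elovl3 were Wdr73 (0.989), Poln (0.987) and Pafah2 (0.986). Elovl5 was nearest to Taldo1 (0.977), Plaa (0.968) and the acyl-CoA synthetase gene Acsl5 (0.964), and Tecr to Eral1 (0.989), Tmx2 (0.987) and Mmachc (0.986). Elovl1 was nearest to Apol6 (0.96), Slc1a5 (0.959) and Sh3d19 (0.957), and Fads1 to Man1a (0.988), Cyp2f2 (0.983) and Gpt2 (0.982).

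In GRCm38.p6, the build of the gene positions used here, Elovl1 (uc008ukb.2) lies on chromosome 4 from 118426874 to 118432953 and Elovl3 (uc008hsk.1) on chromosome 19 from 46131897 to 46135694. Elovl5 (uc009qtn.2) lies on chromosome 9 from 77917365 to 77984519 and Elovl6 (uc008rid.1) on chromosome 3 from 129532386 to 129638495. Hsd17b12 (uc008lgp.1) lies on chromosome 2 from 94032697 to 94157909, Tecr (uc009mkm.2) on chromosome 8 from 83571698 to 83594491, and Fads1 carries the identifier uc008gpe.2. Besides the overlap of Elovl3 with Pitx3, Elovl1 shares 53 bases with Cdc20, and Elovl5, Elovl6 and Tecr overlap long noncoding RNA genes, with 19966 bases shared between Tecr and D830024N08Rik. Reads from such overlaps could not be assigned here, since the use of strand is not stated.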

How the data were processed

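TRAP mRNA was measured in 22 of the 58 samples of the series, and the other samples were not analysed here. The authors deposited log2 CPM values for 11603 UCSC gene identifiers. The build mm10 and the tools HISAT2, featureCounts, Picard and edgeR are named in the submitters' processing notes. Versions, strand handling and the annotation counted against are not given in the sources used here. No label names a batch. Batches were read from the values: the 9 genes at the floor in every brown library and the 2 at the floor in every inguinal library each took 2 deposited values, which part the libraries of a depot the same way for each gene. The divisions of the depots were joined in the way that gave the smaller batch coefficients in a fit of group and batch, at most 0.005 log2 units over all genes against 1.897 when joined the other way. A batch term therefore had nothing left to adjust, and the residual degrees of freedom count no adjustment for batch made before deposit.

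The deposited values of the 22 libraries were fitted together with limma-trend (version 3.58.1 in R 4.3.3), with 5 group means and 17 residual degrees of freedom. Two-sided p-values were adjusted over all 11603 genes (Benjamini-Hochberg), with a threshold of 0.05. Every gene passed a filter of 1 CPM in 3 libraries, so all 7 measured members passed it. The script was tested on simulated data. Differences between 2 members of a library were compared by exact permutation tests. Alternatives were other scalings and pseudocounts (1 and 5 CPM), other filters, library weights, replicate blocks, a batch term, fits within a batch or within the groups compared, and leaving out libraries. Leaving out cold brown libraries 1 and 5 was chosen after seeing the data.

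The members and lists were chosen with earlier results of these data known. The rule for named genes took all members and, per list and depot, the 2 genes with the largest change past the threshold, with a mean of at least 1 log2 CPM in the higher group and no group wholly at the floor of -5. It also took the 3 genes most correlated with each member. Library depth is unknown, and counting error could not be computed. The labels call the libraries biological replicates without naming animals, so p-values measure the spread between these samples. By the rule used (every pair above 0.1), replicate numbers did not pair the samples. Correlations of deviations were -0.107 to 0.235 for same-numbered brown libraries, -0.127 to 0.0149 for cold and warm beige by library number, 0.0853 to 0.373 for cold beige with cold brown and 0.1 to 0.241 for warm beige with warm brown, where 3 of 3 were nearest to their own number. Promoters of 6 of the 8 genes were matched by symbol in RefSeq, GRCm38.p6.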

Additional observations from a re-analysis of the deposited data

Results flagged for a closer look

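The change on warming differed between beige and brown cells by a direct test for 5 of 7 members, where 47.2% of all genes differed. On the log2 scale, beige minus brown, the difference was -1.76 for Elovl6, -1.19 for Tecr, -0.61 for Hsd17b12, 1.09 for Elovl1 and -3.84 for Elovl3. The Elovl3 value rests on libraries at the floor, and with 1 CPM added it was -0.23 and did not pass (limma, adjusted p = 0.204). The adjusted p-values and the libraries on which the Elovl1 difference depends stand with the results above.

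In 2 of 28 groups tested, 1 library stood apart by its gap over the range of the group (Dixon), and chance gives about 1 in 20. Elovl1 in cold brown library 5 was 1.68 log2 CPM, with 0.61 to 0.86 in the other cold brown libraries. Endothelial markers summed to 170 CPM in this library and to 180 CPM in library 1, where Elovl1 was 0.61, and their part in the value was not tested. Elovl3 in warm white library 4 was -2.99 log2 CPM, against -5.84 to -5.73 in the others, all values far below 1 CPM. Those others were at the floor, where any library with signal stands apart, so the rate of 1 in 20 does not apply to this group.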

How the results depend on the processing

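Of 1428 alternative values of the members, 1366 kept their direction and their side of the threshold. Elovl3, Elovl5, Elovl6, Hsd17b12 and Tecr fell in beige cells, and all but Tecr in brown cells, under every alternative run, and Tecr missed the threshold in brown cells within batch 1 alone. Leaving out cold brown libraries 1 and 5 left 5 members called in brown cells. Within batch 1, which holds fewer libraries, 5255 genes were called in beige warming, 5050 in brown warming, 1969 in their difference (1 member), 3710 between cold beige and cold brown and 1304 between warm beige and warm white; the last count was 3016 with only those groups fitted. The full fit called 8453, 8274, 5477, 7184 and 4572.

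Among the members, directions turned for values that had missed the threshold, with 2 exceptions. Elovl3 in the difference of effects became 0.32 with 5 CPM added and passed (limma adjusted p = 0.0284), and Elovl1 between cold beige and cold brown became -0.0043 after quantile normalization. Fads1 in brown warming was -0.39 after quantile normalization and -0.10 with median-of-ratios scaling. As single libraries were left out, Fads1 ran from -0.22 to 0.595 in beige warming, from -0.0735 to 0.0615 in brown warming and from -0.23 to 0.58 in the difference, and between warm beige and warm white Elovl3 ran from -0.48 to 1.08, Elovl5 from -0.071 to 0.169 and Hsd17b12 from -0.212 to 0.113. Elovl1 in brown warming was -0.31 after quantile normalization. Between warm beige and warm white, Elovl3 was -0.19 after quantile normalization, -0.27 with library weights and -1.37 within batch 2, and it was 3.11 within batch 1, where it passed (limma adjusted p = 0.00248). Elovl5 there was -0.07 within batch 1. Hsd17b12 there was 0.0025 after quantile normalization, 0.0431 with totals that leave out the 20 most abundant genes, 0.0502 with weighted libraries, 0.0146 with a library number block and 0.12 within batch 2. The causes were not tested. Of 864 alternative counts over the pathway lists, 52 moved by over 1.5 times.

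Elovl6 minus Elovl5 in brown warming was -1.87 within batch 1. Hsd17b12 minus Tecr in beige warming was -0.68 with 5 CPM added (exact permutation p = 0.0286). With the replicate number as a block the same 5 members were called in brown and the same 6 in beige warming. With a library number block Elovl5 passed in the difference (0.49, limma adjusted p = 0.0215), and with the number in the titles Hsd17b12 passed between cold beige and cold brown (-0.28, 0.0229) and Elovl5 between warm beige and warm brown (-0.33, 0.0238). The block moved no count of genes by over 1.5 times. The batch term could hardly move a value, since the deposited values hold next to no difference between the batches. Scaling shifted the median of all genes by up to 0.222 log2 units in beige warming, by -0.14 to 0.152 in brown warming, by up to 0.205 in their difference and by up to 0.102 between warm beige and warm white. The planned comparison of Fads2 with Fads1 was not run. Depth is unknown, which limits statements on values under 1 CPM.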
